A study of Mus musculus with 2 samples.

Results

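The TRBJ1 genes are the first of the 2 groups of J gene segments in the mouse TCR β-chain locus. Their clonotypes were taken from the deposited lists as the entries whose best V hit was a TRBV gene and whose best J hit was TRBJ1-1, TRBJ1-2, TRBJ1-3, TRBJ1-4, TRBJ1-5 or TRBJ1-6. A clonotype here is one listed nucleotide CDR3 together with its V and J hits. By this rule TRBJ1 genes were carried by 110 of 337 TCR β-chain clonotypes in hepatic CD8αα T cells, against 289 of 915 in hepatic CD8αβ T cells. TRBJ1-7, which the annotation also lists after TRBJ1-6, was the best hit of 0 clonotypes.

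Both libraries came from the liver of TG mice (genotype dnTGF{beta}RII, strain C57BL/6, age 10 weeks by the labels), whose T cells express a dominant negative form of TGF-β receptor type II from the mouse CD4 promoter, and which serve as a model of primary biliary cholangitis. The cells compared were sorted CD8αα T cells, whose CD8 coreceptor is a homodimer of α chains, and CD8αβ T cells, which carry the heterodimer. Each cell type gave 1 bulk library of polyadenylated RNA, no wild-type library was analysed here, and the sources used here do not give the number of mice pooled. The lists hold receptor chains only, so Cd8a, Cd8b1 and other markers of the sort could not be checked. The CD8αα library listed 2995 TCR β-chain reads, of which 743 carried a TRBJ1 gene, and the CD8αβ library listed 1850, of which 562 did. A count of 3 reads corresponds to 0.1002% of the TCR β-chain reads of the former and 0.162% of those of the latter. Reads carried no described molecular identifiers, so the 95% confidence intervals below (Wilson for shares, Newcombe for differences) and these floors cover counting error only. Every test between cell types compares these 2 libraries and not the conditions, because there are no replicates. A share of reads also cannot tell more cells of a clone from more TCR RNA per cell.

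A TCR β-chain gene is assembled in the thymus by joining a D segment to a J segment and then a V segment to the joined pair, with bases trimmed from the ends and others added at each junction. The junction encodes CDR3, the loop that lies closest to the peptide in the binding groove. The locus repeats the order of one D segment, a group of J segments and a constant gene: TRBD1, the TRBJ1 genes and TRBC1 come first, followed by TRBD2, the TRBJ2 genes and TRBC2. TRBD1 can join to either group of J segments, whereas a TRBD2 join to a TRBJ1 gene would run against the order of the locus. The J segment gives the last residues of CDR3 and the framework strand that follows it, and splicing then links it to a constant exon.

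The 6 members lie on the plus strand of chromosome 6 (GRCm38, GENCODE), where each is annotated as a J gene with 1 exon, and the first and the last of them start 1743 bp apart. TRBD1 starts 663 bp before TRBJ1-1. Their germline sequences show what each J segment can give to a CDR3. Capitals mark the bases that fall within CDR3 when nothing is trimmed, and lower case marks the framework part.
TRBJ1-1, chr6:41533864-41533911: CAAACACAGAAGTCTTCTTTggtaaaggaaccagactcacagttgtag
TRBJ1-2, chr6:41534001-41534048: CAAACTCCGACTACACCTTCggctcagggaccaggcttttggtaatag
TRBJ1-3, chr6:41534323-41534372: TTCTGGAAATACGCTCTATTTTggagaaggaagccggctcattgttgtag
TRBJ1-4, chr6:41534811-41534861: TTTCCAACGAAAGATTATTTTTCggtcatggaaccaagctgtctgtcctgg
TRBJ1-5, chr6:41535084-41535133: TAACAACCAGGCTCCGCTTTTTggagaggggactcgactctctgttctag
TRBJ1-6, chr6:41535554-41535606: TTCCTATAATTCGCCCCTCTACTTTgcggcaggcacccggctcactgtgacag
The CDR3 part was 20 bases in TRBJ1-1 and TRBJ1-2, 22 in TRBJ1-3 and TRBJ1-5, 23 in TRBJ1-4 and 25 in TRBJ1-6. In the lists, 390 TRBJ1 clonotypes had a J alignment without a mismatch, and in 390 of them the J part of the CDR3 was found in the germline sequence of the gene named. The remaining 9 clonotypes had a mismatch in the J alignment. The best J hit was tied between TRBJ1-1 and TRBJ1-2 in 1 clonotype of CD8αβ T cells.

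TRBJ1 genes took a smaller part of the reads in CD8αα T cells, whereas by clonotypes the libraries did not differ beyond counting error. In CD8αα T cells TRBJ1 genes held 24.8% of the TCR β-chain reads (23.3 to 26.4), against 30.4% in CD8αβ T cells (28.3 to 32.5). The difference was -5.57 percentage points (-8.19 to -2.98; Fisher's exact test, two-sided, p = 2.64e-05). With each clonotype counted once, the shares were 32.6% (27.9 to 37.8) and 31.6% (28.7 to 34.7), and the difference of 1.06 percentage points (-4.64 to 7.01) did not exceed counting error (Fisher's exact test, p = 0.733). The largest TCR β-chain clonotype of each library carried a TRBJ2 gene, with 663 reads in CD8αα T cells against 91 in CD8αβ T cells. Without these clonotypes the shares of reads were 31.9% and 31.95% (Fisher's exact test, p = 0.973). The CD8αα share thus rose from 24.8% and the CD8αβ share from 30.4%, so the difference in reads rested mainly on the CD8αα clonotype.

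TRBJ1-1, the member nearest to TRBD1, had the most reads in both libraries. Its 205 reads in CD8αα T cells were 6.84% of the library (5.99 to 7.81), and its 168 reads in CD8αβ T cells were 9.08% (7.86 to 10.5). TRBJ1-1 was also carried by the most clonotypes, with 35 (10.4%) in CD8αα T cells against 100 (10.9%) in CD8αβ T cells. TRBJ1-1 was thus lower in CD8αα T cells by reads and about level by clonotypes. The adjusted p by reads was 0.00658 (Fisher's exact test, Benjamini-Hochberg over 12 TRBJ genes). The call was lost with a minimum of 2 reads per clonotype (difference -1.32 percentage points; Fisher's exact test, adjusted p = 0.134) and without the largest TCR β-chain clonotype of each library (-0.760, at 8.79% against 9.55%; adjusted p = 0.411).

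TRBJ1-2 had the fewest reads of the 6 genes in CD8αα T cells and ranked behind TRBJ1-1 and TRBJ1-6 in CD8αβ T cells. It held 38 reads (1.27%, 0.926 to 1.74) against 102 reads (5.51%, 4.56 to 6.65), which was the largest relative difference among the 6 genes by reads (log2 ratio -2.12; Fisher's exact test, adjusted p = 1.32e-16). TRBJ1-2 was also the member with the largest relative difference by clonotypes, with 13 (3.86%) in CD8αα T cells against 63 (6.89%) in CD8αβ T cells. That difference was -3.03 percentage points (-5.45 to -0.0166), with an unadjusted p of 0.0461 and an adjusted p of 0.276 by Fisher's exact test. TRBJ1-2 was therefore lower in CD8αα T cells by both units, but by clonotypes the difference did not pass the threshold after adjustment.

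TRBJ1-3 and TRBJ1-4 lie in the middle of the cluster. TRBJ1-3 held 142 reads (4.74%, 4.04 to 5.56) in 20 clonotypes of CD8αα T cells, against 75 reads (4.05%, 3.25 to 5.05) in 39 clonotypes of CD8αβ T cells, a difference within counting error (Fisher's exact test, adjusted p = 0.310). Without the largest TCR β-chain clonotype of each library TRBJ1-3 passed the test, at 6.09% against 4.26% (difference 1.83 percentage points; Fisher's exact test, adjusted p = 0.0121). TRBJ1-4 held 177 reads (5.91%, 5.12 to 6.81) in 21 clonotypes against 75 reads (4.05%, 3.25 to 5.05) in 41 clonotypes. By reads TRBJ1-4 was higher in CD8αα T cells (Fisher's exact test, adjusted p = 0.00658). The call was lost without the largest clones. Without the largest TRBJ1 clonotype of each library, which carried TRBJ1-4 in CD8αα T cells and TRBJ1-6 in CD8αβ T cells, the difference for TRBJ1-4 was -1.11 percentage points (adjusted p = 0.0660, Fisher's exact test). Without the largest clonotype of each J gene in each library, an alternative chosen after seeing the data, it was 1.26 percentage points, at 5.40% against 4.14% (Fisher's exact test, adjusted p = 0.198).

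TRBJ1-5 and TRBJ1-6, the members farthest from TRBD1, moved in opposite directions by reads. TRBJ1-5 held 99 reads (3.31%, 2.72 to 4.01) in 8 clonotypes of CD8αα T cells, against 29 reads (1.57%, 1.09 to 2.24) in 20 clonotypes of CD8αβ T cells, and was higher in CD8αα T cells (Fisher's exact test, adjusted p = 0.000346). Of the 99 reads 61 were 1 clone. Without the largest clonotype of each J gene in each library, an alternative chosen after seeing the data, TRBJ1-5 did not pass, at 2.31% against 1.66% (Fisher's exact test, adjusted p = 0.356). TRBJ1-6 held 82 reads (2.74%, 2.21 to 3.39) in 13 clonotypes against 113 reads (6.11%, 5.11 to 7.29) in 26 clonotypes, and was lower in CD8αα T cells (Fisher's exact test, adjusted p = 3.38e-08). Without the largest TRBJ1 clonotype of each library, which in CD8αβ T cells was a TRBJ1-6 clone of 50 reads, TRBJ1-6 stood at 2.82% against 3.50% and did not pass (difference -0.679 percentage points; Fisher's exact test, adjusted p = 0.233). By clonotypes TRBJ1-5 took 2.37% and 2.19% and TRBJ1-6 took 3.86% and 2.84%, and neither difference passed the test.

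**Figure D1:**
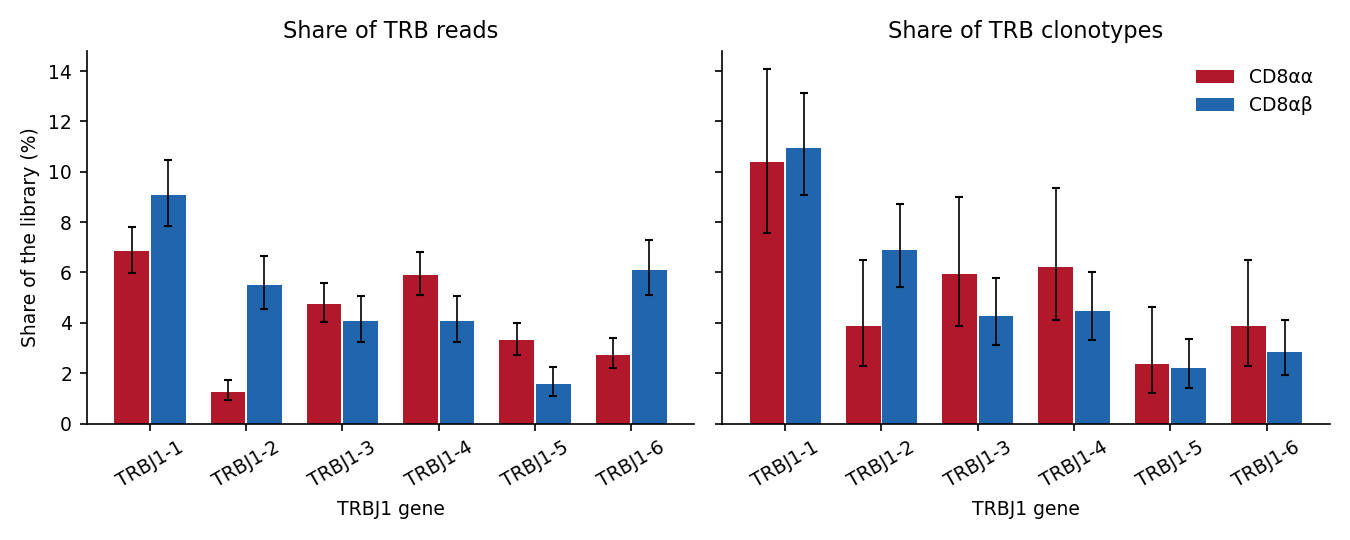
Share of the TCR β-chain reads (left) and of the TCR β-chain clonotypes (right) of each library taken by each TRBJ1 gene, in percent, with CD8αα T cells in red and CD8αβ T cells in blue; error bars are 95% Wilson intervals, which cover counting error. By reads TRBJ1-2 stands at 1.27% against 5.51% and TRBJ1-6 at 2.74% against 6.11%, whereas by clonotypes the intervals of the 2 libraries overlap for every gene.

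In all, 5 of the 6 TRBJ1 genes differed by reads at an adjusted p under 0.05, with TRBJ1-4 and TRBJ1-5 higher and TRBJ1-1, TRBJ1-2 and TRBJ1-6 lower in CD8αα T cells. This was near the background, since 83.3% of the 12 TRBJ genes differed by reads (25% higher and 58.3% lower). Among the TRBJ2 genes 1 was higher, 4 were lower and 1 did not pass. By clonotypes 0 of the 6 genes differed (1 at an unadjusted p under 0.05, Fisher's exact test), against a background of 0% of the 12. A difference of at least 1.5-fold was seen in 3 of the 6 by reads (58.3% of the 12) and in 1 of the 6, TRBJ1-2, by clonotypes (8.33% of the 12). When the largest clonotype of each J gene was left out of each library, a choice made after seeing the data, TRBJ1-2 was the 1 member that still differed by reads, at 1.70% against 6.25% (Fisher's exact test, adjusted p = 9.83e-11). The TRBJ2 genes closest to the whole cluster in their ratio of read shares were TRBJ2-7 (log2 ratio -0.23) and TRBJ2-5 (0.10), against -0.29 for the cluster, over 2 libraries.

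The order of the members by reads was not the same in both libraries. In CD8αα T cells TRBJ1-1 was followed by TRBJ1-4, TRBJ1-3, TRBJ1-5, TRBJ1-6 and TRBJ1-2. The intervals of neighbours in this order overlapped except between TRBJ1-3 and TRBJ1-5 and between TRBJ1-6 and TRBJ1-2. All intervals of this order treat reads as independent draws and are thus too narrow. In CD8αα T cells 63 of the 142 TRBJ1-3 reads and 61 of the 99 TRBJ1-5 reads were 1 clone each. In CD8αβ T cells TRBJ1-1 was followed by TRBJ1-6, TRBJ1-2, then TRBJ1-3 and TRBJ1-4 with 75 reads each, and TRBJ1-5. Here the intervals did not overlap between TRBJ1-1 and TRBJ1-6 or between the pair with 75 reads and TRBJ1-5. By clonotypes the order in CD8αβ T cells was TRBJ1-1, TRBJ1-2, TRBJ1-4, TRBJ1-3, TRBJ1-6 and TRBJ1-5, and TRBJ1-6 thus came next to TRBJ1-1 by reads and next to last by clonotypes.

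Clone size, the number of reads per clonotype, was larger in CD8αα T cells. TRBJ1 clonotypes had a median of 3 reads and a mean of 6.75 in CD8αα T cells, against a median of 1 read and a mean of 1.94 in CD8αβ T cells. Clonotypes seen with a single read were 30 of 110 (27.3%, 19.8 to 36.3) and 163 of 289 (56.4%, 50.6 to 62.0). The difference was -29.1 percentage points (-38.4 to -18.5; Fisher's exact test, p = 1.91e-07, and 9.54e-07 after adjustment over 5 measures). The CD8αα library also held more TCR β-chain reads over fewer clonotypes (2995 over 337, against 1850 over 915), and the part of depth in this result was not tested. Within each library the single-read share of TRBJ1 clonotypes was not told apart from that of TRBJ2 clonotypes, which was 33.9% in CD8αα T cells (difference -6.65 percentage points, -16.5 to 4.07) and 57.8% in CD8αβ T cells (-1.43, -8.34 to 5.40).

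The TRBJ1 reads of CD8αα T cells were held by few clones, and so were the TRBJ2 reads. There, 21 TRBJ1 clonotypes had at least 10 reads and together held 65.3% of the TRBJ1 reads, whereas in CD8αβ T cells 4 did and held 15.3%. The 11 largest TRBJ1 clonotypes reached 50% of the TRBJ1 reads in CD8αα T cells, and 67 were needed in CD8αβ T cells. The effective number of TRBJ1 clonotypes (1 divided by the summed squares of their read shares) was 25.9 in CD8αα T cells, against 77.8 in CD8αβ T cells. For TRBJ2 it was 9.27 and 117. Among TRBJ2 clonotypes 33 had at least 10 reads and held 78.0% of the TRBJ2 reads in CD8αα T cells, against 8 and 17.4% in CD8αβ T cells. The 4 largest TRBJ2 clonotypes reached 50% of the TRBJ2 reads in CD8αα T cells, and 123 were needed in CD8αβ T cells.

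The members differed in how far 1 clone filled them. In CD8αα T cells the largest clonotype took 12.2% of the TRBJ1-1 reads, 26.3% of TRBJ1-2, 44.4% of TRBJ1-3, 49.7% of TRBJ1-4, 61.6% of TRBJ1-5 and 35.4% of TRBJ1-6. In CD8αβ T cells it took between 3.92% (TRBJ1-2) and 13.3% (TRBJ1-4) in 5 of the genes and 44.2% in TRBJ1-6. TRBJ1-1, which also had the most clonotypes (35), was thus the member least filled by 1 clone in CD8αα T cells. In CD8αβ T cells TRBJ1-6 was the member most filled by 1 clone.

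**Figure D2:**
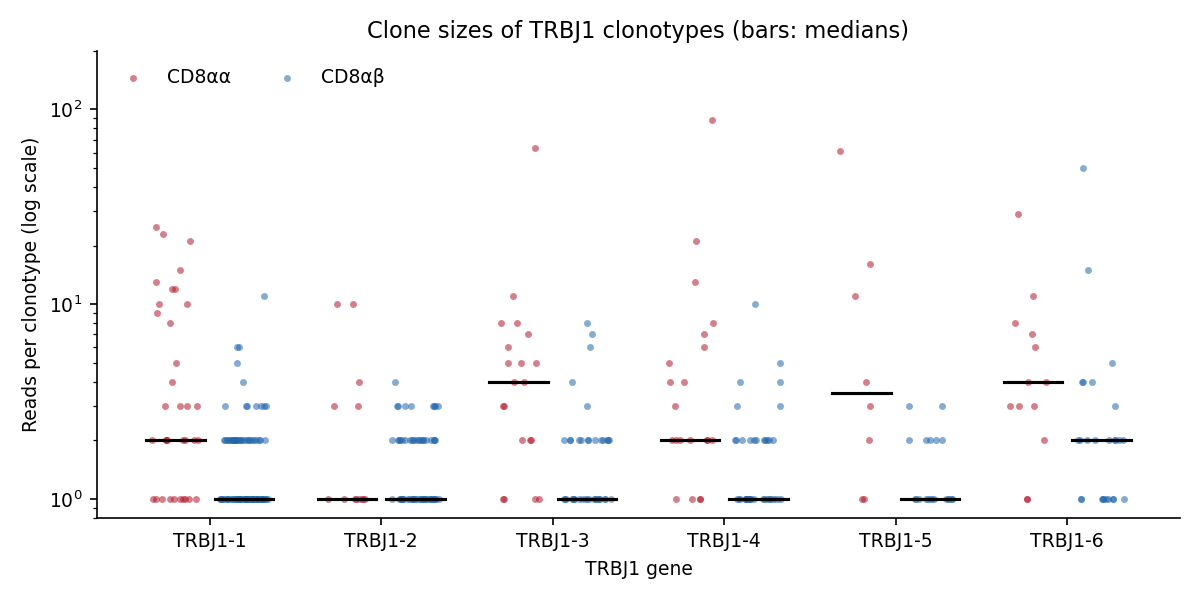
Reads per clonotype on a log scale for every TRBJ1 clonotype, by J gene, with CD8αα T cells in red, CD8αβ T cells in blue and a bar at the median; points are spread sideways for legibility only. The largest points are the TRBJ1-4, TRBJ1-3 and TRBJ1-5 clones of CD8αα T cells at 88, 63 and 61 reads and the TRBJ1-6 clone of CD8αβ T cells at 50 reads.

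The largest clonotypes of each gene with at least 10 reads are shown because 4 of the 5 differences in reads described above did not pass the test without the largest clones. For TRBJ1-1 the call was already lost without the largest TCR β-chain clonotypes, which carried TRBJ2 genes and are not among those shown. Its own 205 and 168 reads all stayed in that alternative, and only the totals fell. Capitals mark the bases aligned to the J gene, and lower case marks the V, D and added bases before them.
CD8αα TRBV3-TRBJ1-1: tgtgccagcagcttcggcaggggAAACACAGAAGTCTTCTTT
CD8αα TRBV16-TRBJ1-2: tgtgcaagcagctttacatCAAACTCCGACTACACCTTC
CD8αα TRBV17-TRBJ1-2: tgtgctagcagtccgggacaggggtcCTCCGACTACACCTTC
CD8αα TRBV13-3-TRBJ1-3: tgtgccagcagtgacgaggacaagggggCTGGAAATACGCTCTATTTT
CD8αα TRBV13-2-TRBJ1-4: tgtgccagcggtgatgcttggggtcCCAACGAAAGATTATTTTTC
CD8αα TRBV29-TRBJ1-5: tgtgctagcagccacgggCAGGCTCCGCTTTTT
CD8αα TRBV12-1-TRBJ1-6: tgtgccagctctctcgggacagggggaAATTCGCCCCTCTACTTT
CD8αβ TRBV29-TRBJ1-1: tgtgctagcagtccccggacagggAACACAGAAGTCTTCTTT
CD8αβ TRBV16-TRBJ1-4: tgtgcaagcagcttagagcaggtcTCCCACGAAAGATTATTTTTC
CD8αβ TRBV1-TRBJ1-6: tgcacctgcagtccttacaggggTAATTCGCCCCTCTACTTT
In CD8αα T cells these clones held 25 reads (TRBJ1-1), 10 reads each (both TRBJ1-2 clones), 63 reads (TRBJ1-3), 88 reads (TRBJ1-4), 61 reads (TRBJ1-5) and 29 reads (TRBJ1-6). The TRBV13-2-TRBJ1-4 clone alone was 2.94% of the TCR β-chain reads (2.39 to 3.61), and the TRBV29-TRBJ1-5 clone, with the shortest CDR3 shown at 11 amino acids, was 2.04% (1.59 to 2.61) and kept 15 bases of its J gene. In CD8αβ T cells the clones shown held 11 reads (TRBJ1-1), 10 reads (TRBJ1-4) and 50 reads (TRBJ1-6), and the last was 2.70% of the TCR β-chain reads (2.06 to 3.55). The J part of the TRBV16-TRBJ1-4 clone differed from the germline at 1 base. The largest clones of TRBJ1-2, TRBJ1-3 and TRBJ1-5 in CD8αβ T cells held 4, 8 and 3 reads.

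V partners were broad in both libraries. TRBJ1 genes were joined to 23 TRBV genes, of which 19 were seen in both libraries, 4 in the CD8αβ library alone and 0 in the CD8αα library alone. Those 4 genes had 1 to 3 TRBJ1 clonotypes each, and the CD8αβ list was the longer one (289 against 110 TRBJ1 clonotypes). Over all TCR β-chain clonotypes the CD8αα library held 21 TRBV genes and the CD8αβ library 24. The TRBV genes with the most TRBJ1 clonotypes in CD8αα T cells were TRBV12-2 with 14 of 110 (12.7%, 7.73 to 20.2), TRBV5 with 12 (10.9%, 6.35 to 18.1) and TRBV3 with 9 (8.18%, 4.36 to 14.8). In CD8αβ T cells they were TRBV12-1 with 33 of 289 (11.4%, 8.25 to 15.6), TRBV12-2 with 26 (8.997%, 6.21 to 12.9) and TRBV29 with 23 (7.96%, 5.36 to 11.7). TRBV5 was joined to 6 TRBJ1 clonotypes in CD8αβ T cells and TRBV12-1 to 5 in CD8αα T cells. By the same measure, the effective number of V partners was 13.8 (CD8αα) and 15.5 (CD8αβ) by clonotypes and 10.5 and 13.3 by reads. For TRBJ2 the effective number was 13.9 and 15.4 by clonotypes and 5.43 and 14.1 by reads. TRBJ1-1 had the most V partners in CD8αα T cells, with 16 over 35 clonotypes. TRBJ1-5 had the fewest in both, with 5 over 8 clonotypes in CD8αα T cells and 11 over 20 in CD8αβ T cells. A gene cannot have more partners than clonotypes.

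**Figure D3:**
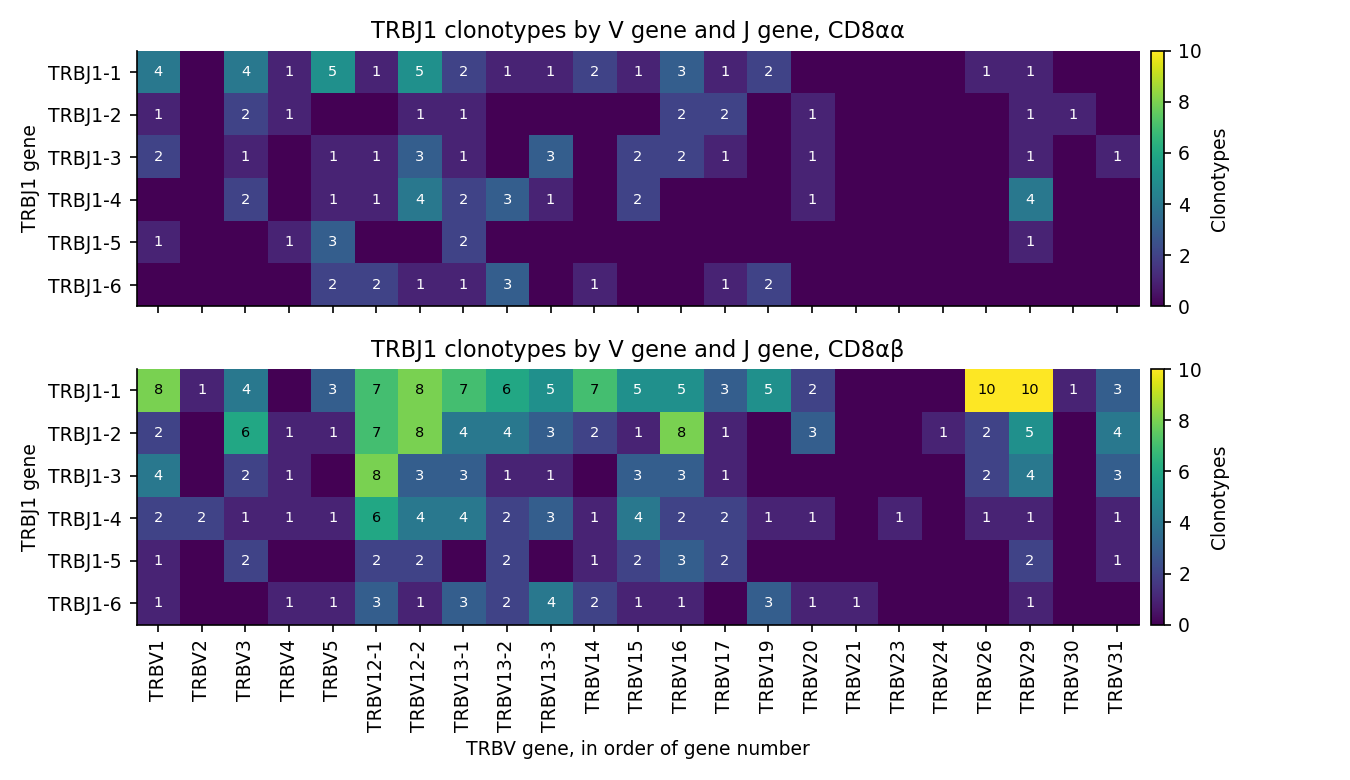
Number of clonotypes for each pair of a TRBV gene (columns, by gene number) and a TRBJ1 gene (rows), with CD8αα T cells above and CD8αβ T cells below on the same colour scale; empty cells hold 0. The fullest cells are TRBV5-TRBJ1-1 and TRBV12-2-TRBJ1-1 with 5 clonotypes each in CD8αα T cells, and TRBV26-TRBJ1-1 and TRBV29-TRBJ1-1 with 10 each in CD8αβ T cells.

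Of 220 V-J pairs seen in the TCR β-chain lists, 105 held a TRBJ1 gene, 62 in CD8αα T cells, 97 in CD8αβ T cells and 54 in both. The lists held 110 and 289 TRBJ1 clonotypes, and the overlap over all pairs is not given here. These numbers are therefore not read as a difference in pairing. By reads 29 of the 105 pairs differed between the libraries, 10 higher and 19 lower in CD8αα T cells (Fisher's exact test, Benjamini-Hochberg over 220 pairs). The background was 33.6% of all pairs, with 7.73% higher and 25.9% lower. By clonotypes 0 of the 105 differed (3 at an unadjusted p under 0.05, Fisher's exact test), and the background was 0%.

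The TRBJ1 pair with the most reads in CD8αα T cells was TRBV13-2-TRBJ1-4, with 111 reads (3.71%, 3.09 to 4.44) against 2 reads in CD8αβ T cells (0.108%; Fisher's exact test, adjusted p = 1.79e-19). It held 3 clonotypes in CD8αα T cells, and 88 of its reads were 1 clone. The pair with the most reads in CD8αβ T cells was TRBV1-TRBJ1-6. Its 50 reads were 1 clone, and CD8αα T cells had 0 reads of this pair (Fisher's exact test, adjusted p = 3.61e-20). These tests treat the reads of 1 clone as independent, which they are not, so both p-values understate the error. By clonotypes neither pair passed the test, at 3 against 2 for TRBV13-2-TRBJ1-4 and 0 against 1 for TRBV1-TRBJ1-6 (CD8αα against CD8αβ). Counted by clonotypes, the fullest pairs all used TRBJ1-1. TRBV5-TRBJ1-1 held 5 clonotypes in CD8αα T cells against 3 in CD8αβ T cells, and TRBV12-2-TRBJ1-1 held 5 and 8. TRBV26-TRBJ1-1 and TRBV29-TRBJ1-1 each held 1 clonotype in CD8αα T cells against 10 in CD8αβ T cells.

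The D hit set the TRBJ1 clonotypes apart from the TRBJ2 clonotypes in both libraries. The 2 D segments differ in a few bases, which the germline sequences show.
TRBD1, chr6:41533201-41533212: gggacagggggc
TRBD2, chr6:41542163-41542176: gggactgggggggc
Among TRBJ1 clonotypes with a single best D hit, TRBD2 was that hit in 5 of 73 in CD8αα T cells (6.85%, 2.96 to 15.1), against 11 of 163 in CD8αβ T cells (6.75%, 3.81 to 11.7). Among TRBJ2 clonotypes it was 119 of 168 (70.8%, 63.6 to 77.2) and 266 of 449 (59.2%, 54.6 to 63.7). The difference between the J groups was -64.0 percentage points in CD8αα T cells (-71.4 to -53.0; Fisher's exact test, p = 8.70e-22, adjusted over 14 tests 6.09e-21), against -52.5 in CD8αβ T cells (-57.8 to -45.7; Fisher's exact test, p = 3.49e-35, adjusted 4.89e-34). The odds ratio did not differ between the libraries beyond counting error (Zelen's exact test, adjusted p = 0.803). Neither did the TRBD2 share of TRBJ1 clonotypes (difference 0.101 percentage points, -6.18 to 8.81; Fisher's exact test, p = 1.00).

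The D scores of the TRBJ1 clonotypes with TRBD2 as best hit had a median of 30 in both libraries. They ranged from 25 to 40 in CD8αα T cells against 25 to 55 in CD8αβ T cells, and 25 was the lowest score listed. The median was 35 in both libraries for TRBJ1 clonotypes with TRBD1, and 50 and 45 for TRBJ2 clonotypes with TRBD2. By gene, TRBJ1-4 had the most, with 2 in CD8αα T cells against 6 in CD8αβ T cells, and one of these was the TRBV13-2-TRBJ1-4 clone of 88 reads, with the lowest score of 25. Both D segments have the same first and last bases. With D hits of a score of at least 40 only, the TRBD2 share of TRBJ1 clonotypes was 3.33% of 30 in CD8αα T cells against 5.88% of 68 in CD8αβ T cells, and the difference from TRBJ2 was -74.6 and -62.5 percentage points.

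Many TRBJ1 clonotypes had no D hit at all. In CD8αβ T cells 102 of 289 (35.3%, 30.01 to 41.0) had none, against 20.0% of TRBJ2 clonotypes (difference 15.3 percentage points, 9.09 to 21.7; Fisher's exact test, p = 1.05e-06, adjusted 4.91e-06). With a minimum of 2 reads per clonotype this difference was 8.98 percentage points, at 31.0% against 22.0%, and did not pass the test (Fisher's exact test, p = 0.0608). In CD8αα T cells 30 of 110 (27.3%, 19.8 to 36.3) had none, against 18.1% (difference 9.21, -0.0626 to 19.2; Fisher's exact test, p = 0.0638, adjusted 0.149). The odds ratio did not differ between the libraries beyond counting error (Zelen's exact test, adjusted p = 0.803). TRBJ1 clonotypes without a D hit had a CDR3 of 12.7 ± 1.44 amino acids (SD, n = 30 clonotypes) in CD8αα T cells, against 14.3 ± 1.13 (n = 80) with one. In CD8αβ T cells the values were 12.9 ± 1.46 (n = 102) and 14.2 ± 1.09 (n = 187).

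**Figure D4:**
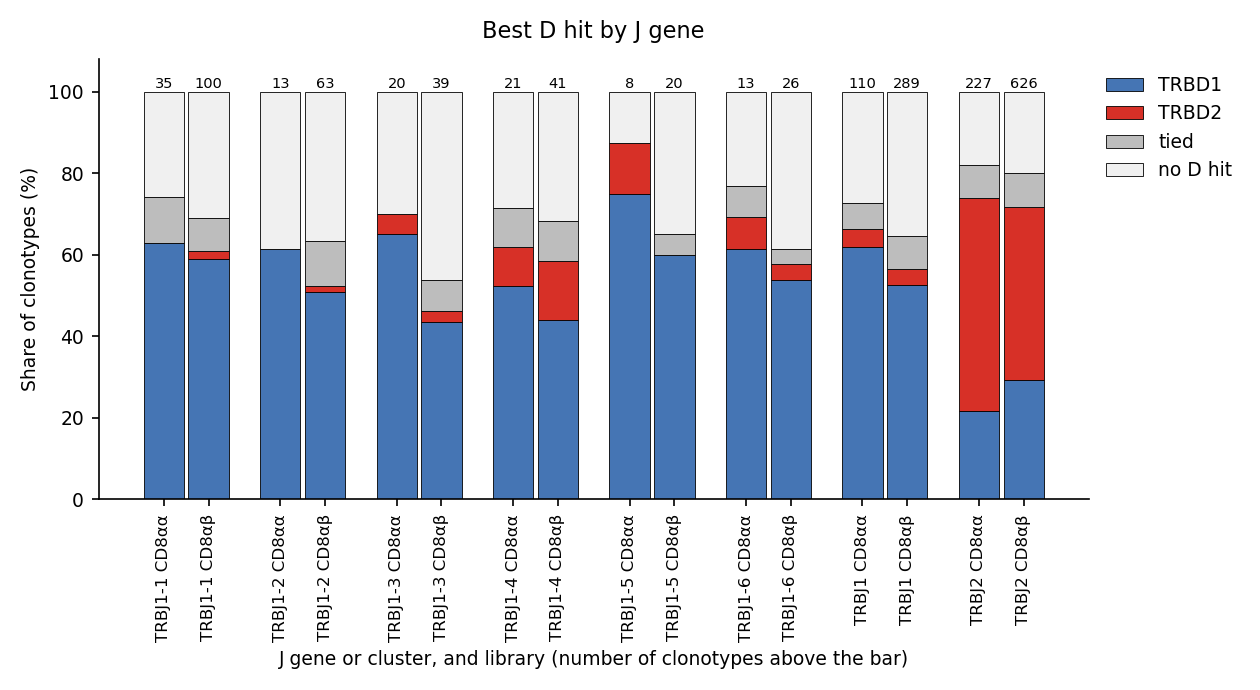
Best D hit of the clonotypes of each TRBJ1 gene, of all TRBJ1 genes and of all TRBJ2 genes in each library, as a stacked share in percent, with TRBD1 in blue, TRBD2 in red, tied hits in dark grey, no hit in light grey and the number of clonotypes above each bar. TRBD2 takes 4.55% and 3.81% of all TRBJ1 clonotypes and 52.4% and 42.5% of all TRBJ2 clonotypes in CD8αα and CD8αβ T cells.

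Most TRBJ1 clonotypes of both libraries had TRBC2 as their best constant hit. TRBC1, the constant gene next to the TRBJ1 genes, was the single best constant hit of 4 TRBJ1 clonotypes in CD8αα T cells against 1 in CD8αβ T cells, whereas TRBC2 was that of 86 and 205. The TRBC1 share was 4.44% (1.74 to 10.9) in CD8αα T cells against 0.485% (0.0857 to 2.70) in CD8αβ T cells (difference 3.96 percentage points, 0.466 to 10.4; Fisher's exact test, p = 0.0312, adjusted over 5 measures 0.0779). TRBJ2 clonotypes had TRBC1 shares of 1.04% and 0.199%, and neither library told TRBJ1 and TRBJ2 apart by clonotypes (Fisher's exact test, p = 0.0835 and 0.498). Because the scores of both constant genes were close, as given below, these tests on best hits cannot show which constant gene was used. By reads the TRBJ1 share of TRBC1 in CD8αα T cells was 10.4%, because the TRBV29-TRBJ1-5 clone held 61 of the 73 TRBC1 reads.

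The hits of both constant genes were close in score. Where TRBC2 was the best hit of a TRBJ1 clonotype and TRBC1 was also listed, the score of TRBC2 was at most 5 points higher in 60 of 77 clonotypes of CD8αα T cells against 187 of 192 of CD8αβ T cells, with a median of 5 in both. For the TRBV29-TRBJ1-5 clone the score of TRBC1 was 3 points higher. In the other TRBJ1 clonotypes of CD8αα T cells with TRBC1 as best hit the score was 0.2 points higher (TRBV12-1-TRBJ1-3), 0.3 points higher (TRBV1-TRBJ1-2) and 11 points higher (TRBV30-TRBJ1-2). In GENCODE the first exons of Trbc1 and Trbc2 are 375 bases each and differ at 1 position, the 260th base, so a read that ends before that base cannot tell the constant genes apart. A constant hit was lacking in 15 TRBJ1 clonotypes of CD8αα T cells against 73 of CD8αβ T cells. The latter was 25.3% against 17.3% of TRBJ2 clonotypes (difference 8.01 percentage points, 2.38 to 13.99; Fisher's exact test, p = 0.00561, adjusted over 14 tests 0.0157). In CD8αα T cells the shares were 13.6% and 11.9% (difference 1.74, -5.37 to 10.2; Fisher's exact test, adjusted p = 0.725). The odds ratio did not differ between the libraries beyond counting error (Zelen's exact test, adjusted p = 0.803).

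The share of long CDR3s did not differ between the libraries beyond counting error, and mean lengths, given without a test, varied among the J genes. The mean over TRBJ1 clonotypes was 13.9 ± 1.41 amino acids (SD, n = 110 clonotypes) in CD8αα T cells against 13.7 ± 1.37 (n = 289) in CD8αβ T cells, and 14 was the most common length in both. CDR3s of 15 amino acids or more were 36 of 110 (32.7%, 24.7 to 41.9) and 85 of 289 (29.4%, 24.5 to 34.9), a difference within counting error (3.32 percentage points, -6.44 to 13.8; Fisher's exact test, p = 0.543). TRBJ1-1 and TRBJ1-2, whose germline CDR3 parts are the shortest, had means of 13.6 and 13.3 in CD8αα T cells, against 13.3 and 13.5 in CD8αβ T cells. TRBJ1-3 and TRBJ1-4 had means of 14.5 and 14.1, and of 14.1 and 14.4. TRBJ1-6, with the longest germline CDR3 part, had means of 13.8 and 14.

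TRBJ1-6 was also the most trimmed member. The bases removed from its 5′ end averaged 5.62 ± 2.40 (SD, n = 13 clonotypes) in CD8αα T cells against 4.46 ± 3.02 (n = 26) in CD8αβ T cells, and 7.69% and 19.2% of its clonotypes kept every base. TRBJ1-3 was the least trimmed, with 1.00 ± 1.30 bases (n = 20) and 1.21 ± 1.73 bases (n = 39), and 55.0% and 61.5% of its clonotypes kept every base. The other members lay between, with means of 2.31 to 3.38 bases in CD8αα T cells against 1.73 to 2.49 in CD8αβ T cells. Over all TRBJ1 clonotypes an untrimmed J was more frequent than over TRBJ2 in CD8αβ T cells, at 35.3% against 23.6% (difference 11.7 percentage points, 5.32 to 18.1; Fisher's exact test, adjusted p = 0.00112). In CD8αα T cells the shares were 33.6% and 28.2% (difference 5.44, -4.78 to 16.2; Fisher's exact test, adjusted p = 0.399), and the odds ratio did not differ between the libraries beyond counting error (Zelen's exact test, adjusted p = 0.803).

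**Figure D5:**
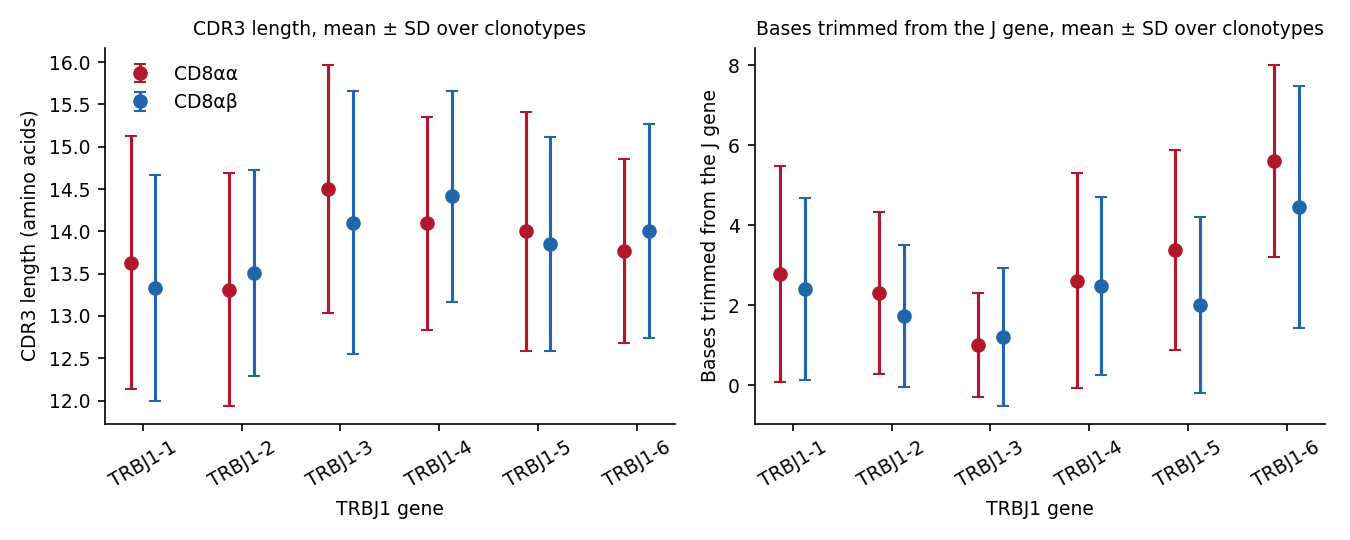
Mean CDR3 length in amino acids (left) and mean number of bases trimmed from the J gene (right) over the clonotypes of each TRBJ1 gene, with CD8αα T cells in red, CD8αβ T cells in blue and bars of 1 SD over clonotypes; the length axis does not start at 0. TRBJ1-6 lost the most bases, with means of 5.62 and 4.46, and TRBJ1-3 the fewest, with 1.00 and 1.21.

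The libraries shared 3 TRBJ1 clonotypes with the same V gene, J gene and nucleotide CDR3, which was 2.73% of the 110 in CD8αα T cells, against 1.04% of the 289 in CD8αβ T cells. They are shown because they are the receptors listed in both sorted populations, again with the J bases in capitals.
TRBV12-1-TRBJ1-6: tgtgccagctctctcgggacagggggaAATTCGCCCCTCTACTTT
TRBV13-1-TRBJ1-4: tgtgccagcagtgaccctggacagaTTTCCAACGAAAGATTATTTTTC
TRBV14-TRBJ1-1: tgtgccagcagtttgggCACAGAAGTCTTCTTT
TRBV12-1-TRBJ1-6 held 29 reads in CD8αα T cells, where it was the largest TRBJ1-6 clone, and 2 reads in CD8αβ T cells. TRBV13-1-TRBJ1-4 held 2 and 5 reads and kept the whole CDR3 part of its J gene. TRBV14-TRBJ1-1 held 2 reads and 1 read and had no D hit. Of the TRBJ2 clonotypes 0 of 227 and 0 of 626 were listed in both, which allows shares of up to 1.32% and 0.479% (3 clonotypes of each total; the Wilson upper limits are 1.66% and 0.610%). By amino acid CDR3, 4 TRBJ1 and 1 TRBJ2 clonotypes were shared. Whether these entries came from the same clone in both populations, or from reads or cells of one library in the other, was not tested.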

How the data were processed

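Receptor sequences were read out of bulk RNA-seq of sorted liver T cells, with 1 library of CD8αα and 1 of CD8αβ T cells. Clonotype assembly by the authors used MiXCR 3.0.12, and the deposited lists give the raw read count of every clonotype. The deposited fraction is this count over the summed count of all chains in a list, so shares were recomputed over TCR β-chain reads or clonotypes only. The submitters' processing notes name mm10, and the reference library, command and read filters of MiXCR are not given in the sources used here.

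TRBJ1 clonotypes were entries with a TRBV gene as first V hit and a TRBJ1 gene as first J hit. D and constant genes were used where 1 gene alone had the top score. Trimmed J bases were read from the reference points of each entry. Two-sided Fisher's exact tests on shares were run with 95% Wilson and Newcombe intervals, odds ratios were compared between libraries by Zelen's exact test, and families of tests were adjusted by the Benjamini-Hochberg method with a threshold of 0.05 (all 12 TRBJ genes, all 220 V-J pairs, 5 measures between libraries and 14 between J groups). The software was scipy 1.17.1, pandas 2.3.3 and numpy 2.4.6 under Python 3.11.15. The tests were tried on simulated counts drawn independently. Those counts had no reads grouped in clones, so they cannot show how the tests on reads behave in these lists. Segment coordinates and sequences came from GENCODE M21 (GRCm38), since the lists carry no coordinates. Alternatives were a minimum of 2 reads, clonotypes merged by amino acid CDR3, CDR3s that differ by 1 nucleotide merged into an entry with at least 10 times the reads, tied hits treated otherwise, shared clonotypes left out, and the largest clonotypes left out.

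Named items were the 6 TRBJ1 genes, the largest clonotype of each in each library, the TRBV-TRBJ1 pairs with the most reads or clonotypes, the 3 TRBV genes with the most TRBJ1 clonotypes, the other segments downstream of the V genes, the 2 TRBJ2 genes with the most similar ratio, and the shared clonotypes. The members and lists were chosen with earlier results of these data known. No protein sequences were printed.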

Additional observations from a re-analysis of the deposited data

How the results depend on the processing

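No paired analysis was possible because each cell type had 1 library, and for the same reason no result has a replicate check. Of 122 values recomputed for the main comparisons 113 kept both direction and side of the threshold or, for counts, stayed within 1.5 times the reported count, as did 99 of 112 values for single genes or measures. Some alternatives could not move a value, so these counts overstate stability. Merging entries leaves the reads of each V and J gene unchanged, and allowing any V hit added no clonotype. Leaving out a TRBJ2 clonotype does not touch measures over TRBJ1 clonotypes alone. The TRBJ1 share of reads lost its difference without the largest TCR β-chain clonotype of each library (-0.0889 percentage points; Fisher's exact test, p = 0.973) and without the largest clonotype of each J gene, an alternative chosen after seeing the data (-2.00, p = 0.215). The number of TRBJ1 genes that differed by reads fell to 3 without the largest TRBJ1 clonotype of each library and to 1 without the largest of each J gene, where the number of TRBJ1 pairs that differed by reads was 17. The TRBC1 share of TRBJ1 clonotypes no longer passed an unadjusted 0.05 with a minimum of 2 reads (3.37 percentage points, Fisher's exact test, p = 0.308), with the first listed constant hit (4.38, p = 0.207) or without the largest clonotype of each J gene (3.07, p = 0.0791). TRBJ1 and TRBJ2 differed in TRBC1 in CD8αα T cells when reads were counted (10.01 percentage points, Fisher's exact test, p = 2.65e-36), where 1 clone held most TRBC1 reads. The direction turned for TRBJ1-1 by clonotypes with a minimum of 2 reads (0.870, Fisher's exact test, adjusted p = 0.942), TRBJ1-1 by reads without the largest clonotype of each J gene (0.916, adjusted p = 0.504), TRBJ1-4 by reads without the largest TRBJ1 clonotype (-1.11, adjusted p = 0.0660) and TRBJ1-5 by clonotypes merged by amino acid CDR3 (-0.0885, adjusted p = 1). The TRBD2 difference between TRBJ1 and TRBJ2 stayed between -74.6 and -57.7 percentage points in CD8αα T cells and between -62.5 and -44.3 in CD8αβ T cells over 10 alternatives each. Without the largest TCR β-chain clonotypes 5 TRBJ1 genes still differed by reads, but TRBJ1-3 was among them and TRBJ1-1 was not. The single-read share has no value under a minimum of 2 reads. Reads of 1 clonotype are not independent, so tests on reads understate the error, and depth limits genes with few clonotypes, such as TRBJ1-5 with 8 and 20.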
